A study of Talpa occidentalis and Mus musculus with 35 samples.

Results

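Single-exon copies of multi-exon genes are gene models whose coding sequence lies in 1 uninterrupted stretch of the genome although the gene they are named after is split into several exons. They were taken from the deposited annotation of the Iberian mole genome, assembly talOcc3. A model was a member when its name was a gene symbol followed by a copy number, when it had 1 coding part, and when the model of the same symbol without the suffix, called the parent here, had 3 or more coding parts. Olfactory receptors, ribosomal and mitochondrial ribosomal proteins, TRIM and ZNF genes and unnamed LOC genes were left out by the rule. This gave 896 copies among 23336 gene lines. They carried 617 symbols, which is 4.63% of the 13322 symbols with a model of 3 or more coding parts. Members were chosen by the deposited number of coding parts and by name, so the single exon of the copy and the several exons of the parent are descriptions and not findings.

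A spliced messenger RNA can be copied back into DNA by the reverse transcriptase of LINE elements and inserted elsewhere in the genome. Such a retrocopy lacks the introns of its source gene, usually lies far from it, and often carries no promoter. Most retrocopies decay into processed pseudogenes with frameshifts and truncations, while a few stay intact and are expressed. A single-exon model can also be 1 exon of a split or incompletely assembled gene, so the alignment of each copy to the reference transcript is described below exon junction by exon junction.

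The series compared polyadenylated RNA of ovotestes, the gonads of female moles, with mole testes and with mouse gonads. Labels named 19 mole libraries (Talpa occidentalis: ovotestis and testis at E15, 2 libraries each; ovarian part, testicular part and testis at P7, 3 each, and in adults, 2 each). They named 16 mouse libraries, 2 a group (CD1 ovary and testis at E13.5, P7 and 10 weeks; wild-type B6 ovary and Fgf9 mutant ovary at E13.5). Nothing in the file belongs to a library, so library depth and the expression of the copies are unknown here, and every value below is a property of a gene model in 1 annotation, without replicates.

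Each transcript line named a reference transcript, the interval of it to which the model was aligned, and a score. The mitochondrial chaperonin HSPD1 and COX7B, a small subunit of cytochrome c oxidase, show what it means for a copy to cross a junction. The letters of the mole copies were not used here, and the mouse letters below, from GENCODE M21 (GRCm38), mark where exons meet in the spliced transcript. Each line gives 15 bases on either side of a junction of the coding sequence, 5′ to 3′, with the 3 bases before and the 3 bases after the junction in capitals. In the mouse genome the windows of Cox7b (chrX:106015831-106021820, plus strand) and Hspd1 (chr1:55078291-55086939, minus strand) are interrupted by an intron in the middle of the capitals. They show the kind of sequence that a copy crossing the junction carries without a break.
Cox7b junction 1: taagccgtctccAAGTTCgaagcattcagc
Cox7b junction 2: tctacatggacaTATACAgccacacaaatt
Hspd1 junction 1: acaatggggccaAAGGGAagaactgtgatt
Hspd1 junction 5: ttaacacatcaaAAGGTCaaaagtgtgaat
Hspd1 junction 10: attgatccaacaAAGGTTgtgagaactgcc

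The mole parents had the same exon numbers as these mouse genes. HSPD1 had 11 exons in both, and 10 of the 11, in order, were of equal length. COX7B had 3 exons in both, and 2 of the 3 were of equal length. GENCODE's coding parts leave out the stop codon, and the mole models were longer by that much in total, 1722 against 1719 bases for HSPD1 and 243 against 240 for COX7B.

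All 4 COX7B copies crossed both junctions of the parent. The copy on scaffold 15 (47848094 to 47848333, plus strand) reached 93.4% of the parent score, that on scaffold 18 (14174462 to 14174701, minus strand) 92.4%, that on scaffold 41 (9180914 to 9181138, plus strand) 87.7% and that on scaffold 12 (28027408 to 28027647, minus strand) 85.5%. They were 225 to 240 bases long, all multiples of 3. They covered 92.2 to 98.8% of the interval to which the parent was aligned.

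The 8 copies of HSPD1 lay on 8 scaffolds, none of them scaffold 23, which carries the parent (8896784 to 8905000, minus strand). Of these copies, 5 crossed all 10 junctions, with 1703 to 1720 coding bases against 1722 in the parent. Their scores were 95.8, 94.2, 93.2, 92.9 and 91.1% of the parent score, a narrow range. The other three crossed 7, 6 and 2 junctions, with scores of 65.9, 37.1 and 14.4%, and each began well inside the coding sequence, at base 655, 764 or 1476 of a reference transcript on which the parent began at base 138. Of the 8 copies, 3 had a coding length that was a multiple of 3, and 2 of these were among the 5 long ones.

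PPIA, the peptidyl-prolyl isomerase cyclophilin A, had 18 single-exon copies on 16 scaffolds, beside a parent of 6 exons on scaffold 12 (54707993 to 54714343, plus strand). Of its copies, 17 crossed 2 or more junctions and 14 crossed all 4 junctions that lie in the parent's aligned part. The best copy, on scaffold 6 (24602057 to 24602568, plus strand), had 87.3% of the parent score and covered 87.0% of its interval. The lowest score was 38.4% and the median 54.4%. A coding length divisible by 3 was found in 5 of the 18. The parent model was itself longer than the aligned stretch, 1101 coding bases against 267 to 512 in the copies, so a length share would understate what the PPIA copies hold.

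**Figure D1:**
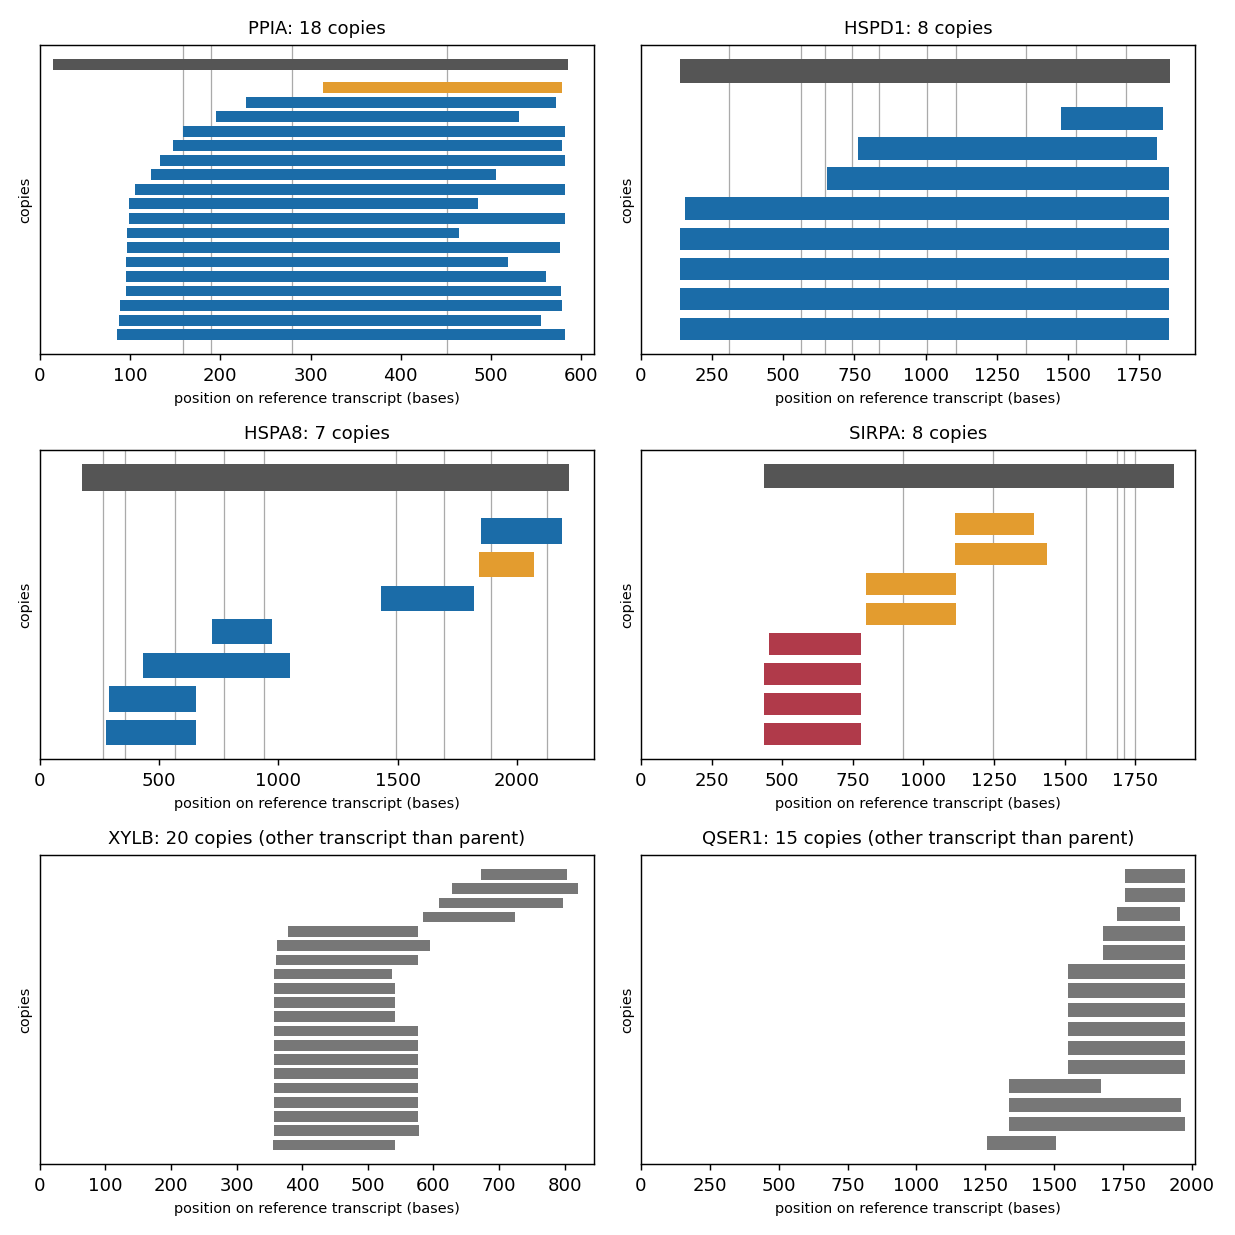
Aligned intervals of the single-exon copies of 6 genes on their reference transcript (x axis, bases; 1 horizontal bar per copy, sorted by start). The dark bar on top is the parent's interval and thin vertical lines are its exon junctions; blue copies crossed 2 or more junctions, orange 1 and red none; XYLB and QSER1 copies, in grey, were aligned to another transcript than the parent, so neither the parent nor junctions are drawn there. PPIA and HSPD1 copies run through most of the transcript. SIRPA copies lie on 3 successive stretches, and most XYLB and QSER1 copies stack on shared base numbers. The XYLB copies were aligned to 2 reference transcripts, drawn on 1 axis.

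Copies were sorted by this measure throughout. A junction of the parent counted as crossed when the copy's interval on the same reference transcript covered it with at least 10 bases on each side. The parent and the copy were aligned to the same reference transcript in 527 of 896 copies (58.8%, exact binomial 95% interval 55.5 to 62.1), and only these could be placed against the junctions. Of the 527, 344 crossed 2 or more junctions, 62 crossed 1 and 121 crossed none. The 344 copies belonged to 245 symbols, 1.84% of the symbols with 3 or more coding parts. There were 108 copies that crossed 5 or more junctions and 19 that crossed 10 or more. Among the 344, 153 crossed every junction of the parent's aligned part. For 5 of the placed copies the parent had no junction there.

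The largest number of junctions, 15, was crossed by a copy of UBA3, the catalytic subunit of the NEDD8-activating enzyme. It lay on scaffold 14 (52591049 to 52592395, minus strand), away from the 16-exon parent on scaffold 12, and had 1347 coding bases and 98.5% of the parent score. A copy of PCBP2, a poly(C)-binding protein, crossed all 13 junctions at 99.0% of the parent score, on scaffold 7 (48216662 to 48217747, minus strand) against a parent on scaffold 34. A copy of CCT6A, a subunit of the cytosolic chaperonin, crossed all 13 at 94.5%, and a copy of the membrane protein TM9SF3 all 13 at 99.5%. The TM9SF3 copy was 1652 bases long, which is not a multiple of 3, and lay on scaffold 244, annotated to base 52807 only. A copy of DLST, a subunit of the 2-oxoglutarate dehydrogenase complex, crossed 12 of 12 at 66.3% of the parent score. Complete exon chains were thus found over a wide range of scores, from 66.3 to 99.5% of the parent's in these 5 copies.

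The 896 copies and the comparison class, 1590 copies of the same naming rule with 2 or more coding parts, differed in where they lay. Of the single-exon copies, 809 (90.3%, 88.2 to 92.1) were on another scaffold than the parent, beside 29.1% (26.9 to 31.4) of the multi-exon copies. The difference was 61.2 percentage points (Newcombe 95% interval 58.1 to 64.0). The difference was as large away from small scaffolds. With copy and parent both on scaffolds annotated to base 1000000 or beyond, the shares were 87.5% (609 of 696) and 15.9% (208 of 1310), a difference of 71.6 points (68.2 to 74.6). Copies on another scaffold made up 96.2% (93.6 to 98.0) of those crossing 2 or more junctions and 75.2% (66.5 to 82.6) of those crossing none. The multi-exon copies often shared little of the parent's aligned interval. Over 847 on the parent's reference transcript, median coverage was 6.05% (order-statistic 95% interval 0.19 to 16.0), beside 54.5% for single-exon copies. Under 50% of the length was aligned in 23.5% of multi-exon and 5.36% of single-exon copies. Whether multi-exon copies are separate genes or parts of a split model was not tested. Intervals here and below treat each model as 1 unit, although models of 1 symbol share their source.

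Coding length was a multiple of 3 in 584 of the 896 (65.2%, 62.0 to 68.3), beside 87.8% of all transcripts in the annotation and 87.7% (86.0 to 89.2) of the multi-exon copies. The difference from the multi-exon copies was -22.5 points (-26.0 to -19.0). Within the single-exon copies the share was 53.2% (47.8 to 58.6) where 2 or more junctions were crossed and 81.0% (72.9 to 87.6) where none was, a difference of -27.8 points (-35.8 to -18.3). These classes also differed in length, with medians of 487 and 270 coding bases. Over all 618 copies of at least 300 bases, whatever they crossed, the share was 54.7% (50.7 to 58.7). Length and junction number were not separated. Divisibility by 3 depends on insertions and deletions and, in partial copies, also on where the model starts and ends. A model with a shifted frame or a stop codon can pass it, and no phase was given for 790 of the copies, the ones labelled exonerate, so frame was read from length alone.

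**Figure D2:**
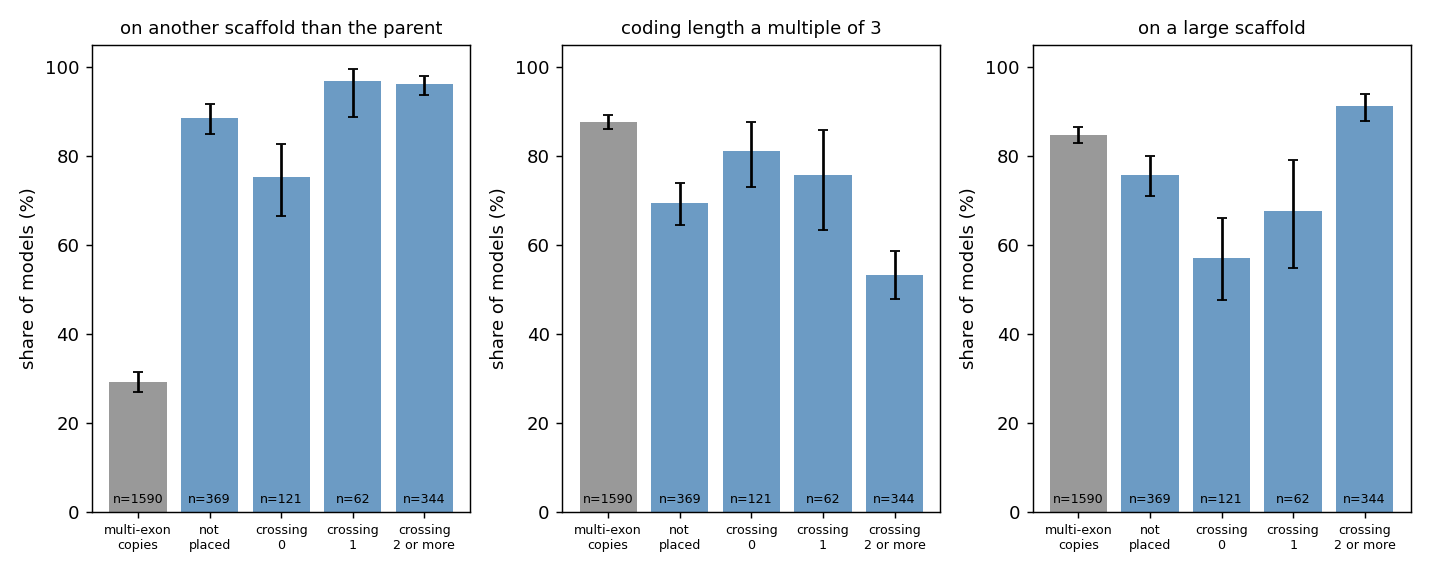
Shares of models (y axis, %) on another scaffold than the parent, with a coding length divisible by 3, and on a scaffold annotated to base 1000000 or beyond, for the multi-exon copies (grey) and 4 classes of single-exon copies (blue). Error bars are exact binomial 95% intervals and n is the number of models; copies crossing 2 or more junctions had the highest share on large scaffolds (91.3%) and the lowest share divisible by 3 (53.2%).

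Coverage and score rose together over the placed copies, as the plot of score against coverage shows. The copies covered a median of 54.5% (order-statistic 95% interval 47.2 to 61.1, quartiles 22.4 and 90.8) of the parent's aligned interval. These placed copies scored a median of 45.3% (40.2 to 48.9) of the parent score. At the median they held 417 coding bases, or 44.3% of the parent's length. Score and length could also be read where a copy was not placed. Over 895 copies, placed or not, the median score was 31.6% (28.7 to 34.2), and over the 368 not placed it was 19.0%. All 896 copies held 404 coding bases at the median, or 35.9% of the parent's length. Since the parent carried the highest score of its symbol in all cases, a score share cannot pass 100%. The unit of the score was not stated, so it is read here only relative to the parent. The copies that crossed 2 or more junctions covered a median of 76.7% (70.7 to 84.0) and scored 57.1% (51.7 to 61.9). Those that crossed none covered 7.56% and scored 22.7%. Longer intervals cross more junctions, so coverage and junction number are tied by construction.

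**Figure D3:**
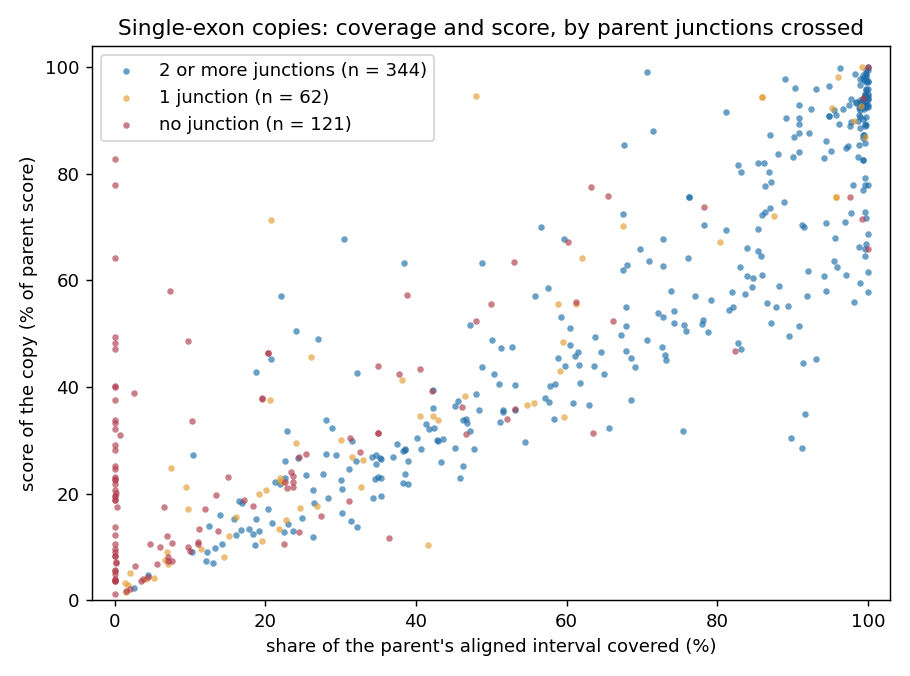
Share of the parent's aligned interval covered (x axis, %) and score as a percent of the parent score (y axis) for the 527 placed copies, 1 point each, coloured by the number of parent junctions crossed. Copies crossing 2 or more junctions reach the upper right corner, and a column of copies at 0% coverage holds those that shared no target with the parent (40 copies).

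A coverage of at least 90% was reached by 140 copies, 127 of which crossed 2 or more junctions. Their median score was 90.6% (87.7 to 92.6) of the parent score. Of the 127, 71 (55.9%) had a length divisible by 3, and 40 of these also reached a score of 90% or more. Their parents were short, with a median of 645 coding bases (561 to 741), against 1064 (972 to 1101) for all copies crossing 2 or more junctions. In the copies crossing 2 or more, the aligned part missing at the 5′ end had a median of 40 bases and that at the 3′ end 9 bases. The 5′ loss was the larger in 158 copies, the 3′ loss in 170, and they were equal in 16. This count includes losses of a few bases. In the 127 copies above, the median 3′ loss was 3 bases (quartiles 2 and 4) and the median 5′ loss 0. The count therefore cannot tell which end was lost more often. Copies with a length divisible by 3 scored 1.06 (0.988 to 1.13) per aligned base, and those with another length 1.01 (0.981 to 1.07). These intervals overlap.

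The 10 copies with the highest score shares among those of at least 90% coverage were copies of IRS2, MOCS2, HIST3H2A, SPRYD7, TM9SF3, C9orf64, PCBP2, SNRPD1, MYL12B and UBA3. MOCS2, the gene of both subunits of molybdopterin synthase, had a copy of 570 bases that scored the same as the parent, 744, and crossed all 4 junctions. It lay on scaffold 11549, which is annotated to base 1120 only. The copy of SPRYD7 on scaffold 22 crossed 4 of 4 junctions at 99.9% and that of C9orf64 on scaffold 380 3 of 3 at 99.4%. SNRPD1, a core protein of the spliceosomal ribonucleoproteins, had a copy at 98.8% that crossed 2 of 3. The copy of MYL12B, a myosin regulatory light chain, lay on the parent's own scaffold, scaffold 3, 5472272 bases away, and crossed both junctions at 98.6%. It had 520 bases, so its length was not a multiple of 3. The IRS2 and HIST3H2A copies were different. Only 12.7% of the IRS2 copy was aligned, its parent was a model of 3 exons on scaffold 10894 that ended at base 1644, and no junction could be crossed. The HIST3H2A copy crossed the only junction in the aligned part of a histone parent whose 3-exon model was 750 bases long. That parent was aligned only to bases 61 to 436 of the reference transcript. Whether its exons belong to 1 gene was not tested, so this crossing is uncertain.

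Other symbols with many copies differed in how far the copies reached. HSPA8, the constitutive cytosolic HSP70, had 7 copies of 234 to 633 bases, all divisible by 3. They covered only 11.4 to 30.2% of the parent interval, and 6 crossed 2 or 3 junctions. The chromatin protein DEK had 7 copies, 5 of them placed and all 5 crossing 4 to 8 junctions. Its best copy, on scaffold 37 (4591396 to 4592507, plus strand), had 96.0% of the parent score. The HSP40 co-chaperone DNAJA1 had 6, of which 3 were placed and crossed 2 or more, with scores of 26.7 to 91.6% over the 6. FDPS, which makes farnesyl diphosphate in the sterol pathway, and MIA2, which acts in export from the endoplasmic reticulum, had 6 each, none aligned to the reference transcript of the parent.

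Copies of XYLB, QSER1 and SIRPA had equal or similar base numbers for their aligned intervals, and crossed few junctions or could not be placed. XYLB, xylulokinase, had 20 copies, more than any other symbol, on 20 scaffolds. All 20 were aligned to other reference transcripts than the 19-exon parent, 2 in number. By base number, 16 lay between 356 and 594 and 4 between 584 and 820, and 5 had the same start and end. The 2 transcripts were not separated, so equal base numbers need not mean the same stretch. The models were long for the class, 609 to 1340 coding bases, but only 10.6 to 32.7% of that length was aligned, and they scored 5.36 to 7.76% of the parent. Across all members, 48 copies had under 50% of their length aligned, and the 20 XYLB copies were among them. QSER1, a glutamine- and serine-rich nuclear protein, had 15 copies between bases 1255 and 1974 of a transcript other than the parent's, 6 of them with the same interval, at 3.38 to 9.06% of the parent score. The 8 SIRPA copies, named after an immunoglobulin-family receptor of myeloid cells, lay on 8 scaffolds annotated to bases 488 to 2832 only. They fell on successive stretches of the reference transcript, 4 between bases 437 and 779, 2 from 796 to 1113 and 2 from 1113 to 1437 at most. They were all divisible by 3, crossed 0 or 1 of 6 junctions and scored 272 to 316, beside 1359 in the parent. Junction positions were estimated linearly from the parent's coding sequence. For SIRPA the first ones fell at bases 929, 1247 and 1574, away from the borders of the stretches. Whether the estimate shifted them was not tested, so a crossing of 1 junction is uncertain for these copies. Without XYLB and QSER1, 861 copies remained, with 89.9% on another scaffold and a median score of 33.3%.

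Copies that crossed no junction were found more often on small scaffolds. Of the 121, 69 (57.0%, 47.7 to 66.0) lay on a scaffold annotated to base 1000000 or beyond, against 314 of 344 (91.3%, 87.8 to 94.0) of those crossing 2 or more. The difference was 34.3 points (25.1 to 43.5) for the latter, and 87.5% of all models lay on such scaffolds. Of the 121, 34 began and ended within 10 bases of exon borders of the parent, 23 of them on smaller scaffolds, and 40 shared no aligned base with the parent. Over all 896 copies, 704 (78.6%) lay on large scaffolds. On 141 scaffolds a single-exon copy was the only locus.

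Of the 87 copies on the parent's scaffold, 9 lay inside the span of the parent, 55 within 100 kb of it and 13 over 1 Mb away. Of the 45 that were placed, 30 crossed no junction and 13 crossed 2 or more, 8 of these 13 over 1 Mb from the parent. Several overlapped the parent at a distance of 0, and the 5 nearest with ties taken alphabetically all did so on the opposite strand. Since none of the 638 models nested in a gene of another symbol was on its host's strand, the strand is not read as a trait of these copies. The 5 included copies of CITED1, a transcriptional co-regulator, and the chloride/proton exchanger CLCN4. The CITED1 copy crossed 2 of 3 junctions with 174 bases. The CLCN4 copy crossed none of 9. Copies of ADAM30, FIGNL2 and ITPR3 made up the others. The ITPR3 copy, 204 bases against 8208 in the parent, had the lowest score share of all members, 0.921%.

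The longest copy was one of EHBP1, on scaffold 6 (28286358 to 28289945, plus strand), with 3588 bases and 99.8% of the score of a 25-exon parent on scaffold 9. It was aligned to another reference transcript than the parent, so its junctions could not be counted. MIA2 (2288 bases), GOLGB1 (2272) and MIA3 (2214) followed, likewise not placed. UTP14A, a protein of the small ribosomal subunit processome, had a copy of 2271 bases on scaffold 4 that crossed 10 of 10 junctions at 85.2% of the score of its parent on scaffold 42.

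Some members lay one after another. Copies of a symbol were joined where they followed each other on 1 strand within 5000 bases and in order along 1 reference transcript. Their aligned intervals could share at most 100 bases, and no limit was set on the gap along the transcript. Joining turned 896 copies into 866 loci. Neighbouring models aligned to different reference transcripts were left apart, so some split copies may still count as more than 1 locus. There were 28 joined loci, 27 of 2 models and 1 of 4. Of these, 24 lay on another scaffold than the parent and 4 (ARG2, EYS, FAT1 and PLEKHA7) on the parent's own. The FAT1 pieces lay just before the parent on its strand, the nearer one 330 bases away, and shared no aligned base with it. Whether pieces of a locus have 1 origin was not tested. The gaps between pieces ranged from 0 to 2364 bases, with a median of 182. The locus of 4 was GNPTAB, the catalytic subunit gene of the phosphotransferase that tags lysosomal enzymes, on scaffold 14 (29481939 to 29485290, plus strand). Its pieces together had 3108 coding bases, aligned between bases 194 and 3782 of another reference transcript than that of the 22-exon parent on scaffold 19, so their coverage of the parent could not be given. In 19 joined loci all pieces were placed. Among these, a pair of pieces of FECH, ferrochelatase, covered 97.5% of the parent's aligned interval on scaffold 1, and a pair of UQCRC2, a core subunit of respiratory complex III, 85.3% on scaffold 25. A pair of HSPA8 copies on scaffold 2 covered 49.3% together. In 3 of the 19 (ADCY10, EYS and FAT1) the pieces covered none of it.

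Of the members, 78 (8.71%, 6.94 to 10.7) lay inside the span of a gene model of another symbol, beside 2.73% of all models, and 76 of the 78 lay wholly in its introns. Among copies crossing 2 or more junctions the share was 12.5% (9.2 to 16.5). Model size was not matched in these comparisons. The copies had a median of 404 coding bases, while symbols of 3 or more coding parts without a copy had a median span of 17195 bases. None of the 78 was on the strand of its host. That is a property of the file, since none of all 638 nested models was. The 5 with the highest score shares were copies of EXOSC8, an exosome subunit, in RPS6KA6, of PCBP2 in DCBLD1, of HIST3H2A in ZNF43, of DEK in CASP4 and of FCF1 in MCF2L2. The EXOSC8 copy, on scaffold 32 (5953446 to 5954273, plus strand), crossed 7 of 8 junctions at 99.1% of the parent score.

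Parents were read by 14 gene lists, which were written with earlier results of these data known. In the 9 lists of broadly expressed genes, 75 of 224 genes with 3 or more coding parts had a single-exon copy (33.5%, 27.3 to 40.1), beside 4.63% of all such symbols. In 52 (23.2%, 17.9 to 29.3) a copy crossed 2 or more junctions, beside 1.84%. In the 5 lists of tissue genes, 3 of 143 had a copy and 1 had a crossing copy. That share, 2.1% (0.435 to 6.01), does not stand apart from the one over all symbols, which lies within its interval. The genes of the broadly expressed lists were shorter, with a median coding length of 921 bases against 1566. In the shortest of 5 classes of coding length, up to 816 bases, 26 of 101 genes of the former and 0 of 18 of the latter had a crossing copy, beside 3.28% of all symbols of that length. In the next class, up to 1234 bases, the counts were 13 of 52 and 0 of 29, beside 2.47%.

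**Figure D4:**
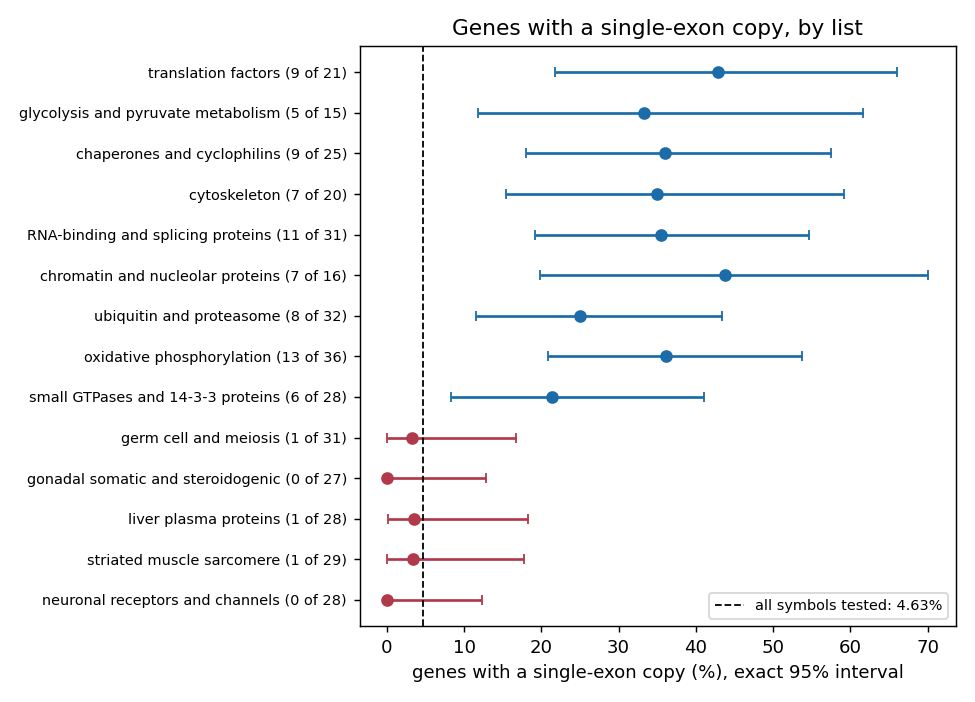
Percent of genes with 3 or more coding parts that had at least 1 single-exon copy (x axis), for 14 gene lists (y axis, with counts), as points with exact binomial 95% intervals. The dashed line is the share among all symbols tested, 4.63%; the intervals of the 9 broadly expressed lists (blue) lie above it and those of the 5 tissue lists (red) include it.

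Among translation factors, 9 of 21 had a copy. The helicase EIF4A2 had a copy crossing 9 of 9 junctions at 90.6% of the parent score, BTF3 one crossing 4 of 4 at 63.7%, and the helicase cofactor EIF4B one crossing 12 of 14 at 55.1%. Of the glycolysis list 5 of 15 had one. Lactate dehydrogenase A (LDHA) had 3 copies, all crossing, with scores of 29.4 to 55.1%. LDHB had a pair that were not placed, and the phosphofructokinase PFKM had 1 crossing 6 of 21 at 12.9%.

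Chaperones and cyclophilins had copies in 9 of 25 genes and the largest number of copies, 46, of which 38 crossed 2 or more. The cytoskeleton list had 7 of 20. The tubulin TUBA1A had 5 copies, the best crossing 3 of 3 at 92.6%, TUBA1B had 4, the best at 34.0%, and the keratin KRT8 had 3, the best at 85.5%. Tubulins are close paralogs, so the symbol a tubulin copy carries is uncertain.

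Of RNA-binding and splicing proteins 11 of 31 had a copy. The U6-associated LSM3 had 3, with scores of 97.8, 92.0 and 84.3% and all divisible by 3, and the best HNRNPA3 copy had 96.5%. Chromatin and nucleolar proteins had copies in 7 of 16. SET, a histone chaperone, had 5, the best with 94.1% on scaffold 45, HMGB3 had 3, the best with 62.6%, and ANP32B 1 with 72.1%.

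In oxidative phosphorylation 13 of 36 genes had a copy. The ATP synthase subunits ATP5L and ATP5F1 had 5 and 4, the best at 94.6 and 60.9% of the parent score. In the ubiquitin and proteasome list 8 of 32 had one, among them the proteasome subunits PSMA2 (best 69.6%) and PSMA6 (94.8%) and the ubiquitin-conjugating enzyme UBE2C (61.4%). Small GTPases and 14-3-3 proteins had 6 of 28, with ARL1 at 87.2%, RHOA at 75.6% and RANBP1 at 62.9%.

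The lists of gonadal genes lay near the share of all symbols. Of 31 germ cell and meiosis genes only PRDM9, the methyltransferase that places recombination hotspots, had a copy. That copy had 218 bases at the end of scaffold 2 and 10.4% of the parent score, and crossed 1 junction. Of 27 gonadal somatic and steroidogenic genes none had one (exact 95% upper bound 12.8%). In the liver list 1 of 28 had a copy (KNG1, on the parent's scaffold, crossing 2 of 13 junctions), in the sarcomere list 1 of 29 (MYH7, overlapping the parent), and in the neuronal list 0 of 28.

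In the mouse, 566 of the 577 parents that matched a gene by name had 3 or more coding exons (98.1%), and so had all 232 matched parents of crossing copies, beside 97.6% of the other symbols. Mouse processed pseudogenes that carry the parent's name stood in GENCODE for 25 of 577 parents (4.33%, 2.82 to 6.33) and 17 of 232 parents of crossing copies (7.33%, 4.33 to 11.5), beside 0.87% of the other symbols. CBX3, which had 1 crossing copy in the mole, had 8 such mouse pseudogenes, and HSPD1, with 8 crossing copies, had 5. Mouse pseudogenes named otherwise were not counted.

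A later mole assembly, MPIMG_talOcc4v2.1, gave a readout that the rule did not use. For pairs of neighbouring genes that were also neighbours in the later annotation apart from what lies between them, it was asked whether a pseudogene entry lay in between. It did in 73 of 152 intervals that held exactly 1 single-exon copy in talOcc3 (48.0%, 39.9 to 56.3), beside 4.7% of 8391 intervals with no model. The difference was 43.3 points (35.5 to 51.2). Intervals with a copy were longer, a median of 140 kb against 19.0 kb. Within length classes the shares were 27.3 against 0.675% under 20 kb, 38.8 against 5.17% from 20 to 100 kb, 50.8% against 153 of 1093 from 100 to 500 kb, and 66.7 against 37.9% from 500 kb. The interval of the difference was above 0 in all 4 classes, from 8.49 to 45.0 points in the last.

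A pseudogene entry was about as frequent where a multi-exon copy lay between the neighbours, 28 of 70 (40.0%, 28.5 to 52.4), so it does not set single-exon copies apart. Copies crossing 2 or more junctions had one in 37 of 75 intervals (49.3%). Those with a length divisible by 3 had one in 14 of 35 (40.0%, 23.9 to 57.9) and the others in 23 of 40 (57.5%, 40.9 to 73.0), with overlapping intervals. A protein-coding entry lay in 39 of the 152 (25.7%, 18.9 to 33.4), and neither kind in 54. The protein-coding share was 6.11% with no model and 42.9% (31.1 to 55.3) with a multi-exon copy. By interval length, from the shortest class, it was 27.3, 18.4, 30.8 and 25.9% with a single-exon copy. With no model it was 3.95, 8.78, 6.77 and 12.1%. Of the 8 PPIA copies in such intervals, 5 had a pseudogene entry there, for example that between HSPA4 and ZCCHC10. Another 1, between ZEB2 and ACVR2A, had a protein-coding entry and no pseudogene, and 2 had neither. The CCT6A copy, between IL23R and IL12RB2, had a protein-coding one and no pseudogene. The entries were matched by neighbours only, so an entry need not be the same locus as the copy.

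**Figure D5:**
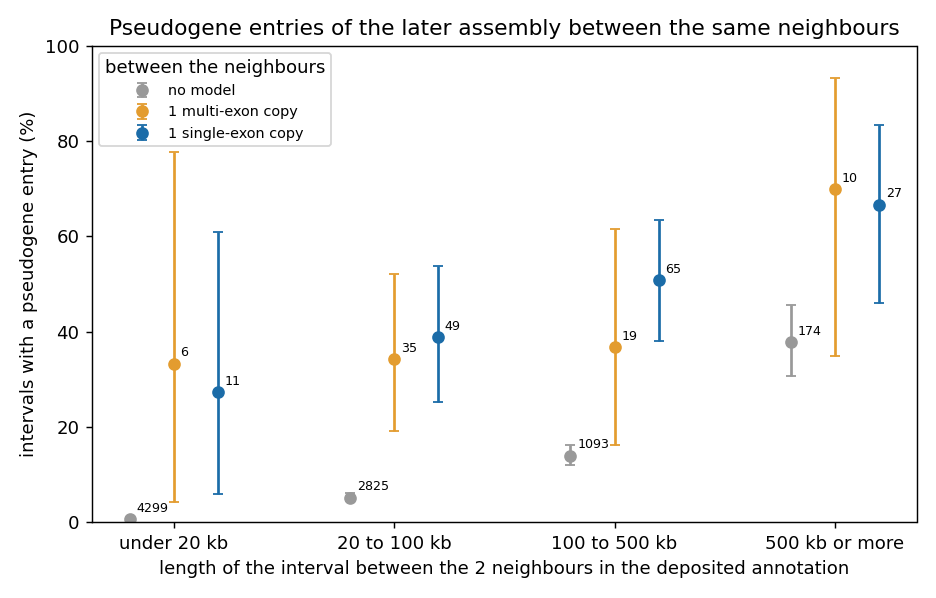
Percent of intervals between the same 2 neighbouring genes that held a pseudogene entry in the later mole assembly (y axis), by length of the interval in the deposited annotation (x axis), for intervals with no model (grey), with 1 multi-exon copy (orange) and with 1 single-exon copy (blue). Bars are exact binomial 95% intervals and the numbers are intervals; in the longest class 66.7% of intervals with a single-exon copy and 37.9% of those without a model held one.

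The rule has a threshold on each side. Copies whose parent had 3 coding parts, just inside, numbered 73, with 83.6% on another scaffold, 69.9% divisible by 3, a median score of 66.9% of the parent and a median coverage of 88.8% over the 56 that were placed. Copies whose parent had 2, just outside, numbered 125, with 80.0%, 72.8%, 58.1% and a coverage of 43.2% over 102. Coverage thus differed most across this threshold. Copies of 2 coding parts with a parent of 3 or more, outside on the other side, numbered 366, with 51.4%, 75.1%, 29.3% and a coverage of 20.8% over 195. The reverse arrangement, an unsuffixed model of 1 coding part beside a suffixed one of 3 or more, occurred in 124 symbols, which are not members.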

How the data were processed

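The deposited annotation of talOcc3 gives start and end positions, 1-based, and a score that the authors deposited on transcript lines. Models are labelled EVM, exonerate and ALN, per the file, and no source used here describes how they were made. STAR 2.6.1d and mm9 stand in the submitters' processing notes without a role. Columns of per-sample values left unused numbered 0, and no expression contrast was analysed here.

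Genes, transcripts and coding parts were joined in Python 3.11.15 (numpy 2.4.6, scipy 1.17.1) by ID and position, because 70 gene IDs stood on more than 1 line. The parent was the unsuffixed model of 3 or more coding parts with the highest score. Parent junctions were carried linearly from coding to reference transcript positions. The counting of crossed junctions and the joining of pieces were tested on simulated copies. Copies for the counting test were built from the carried junctions, so the carry itself was not tested. Shares have exact binomial (Clopper-Pearson) 95% intervals, medians order-statistic and differences of shares Newcombe intervals. Models are not replicates, so no p-value is given. Depth is unknown. GENCODE M21 gave mouse exons, pseudogenes and sequences; the later mole assembly gave names, kinds of entry and neighbours only, and no coordinate was converted.

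The members and gene lists were chosen with earlier results of these data known. Named copies were, by rule, the 10 symbols with most copies, the 10 copies of highest score share at 90% coverage or more, the 5 nearest on the parent's scaffold, the 5 longest, the 3 list members with most copies (all for gonadal and germ cell lists) and the 5 highest scoring inside another gene. COX7B, CCT6A, DLST, the genes of joined loci, CBX3 and the PPIA neighbours were named after their values were seen.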

Additional observations from a re-analysis of the deposited data

How the results depend on the processing

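Alternatives were run for 6 results: the number of copies (896), the shares on another scaffold (90.3%), divisible by 3 (65.2%) and inside another gene (8.71%), and the medians of coverage (54.5%) and score (31.6%). Of 78 values under alternatives, 57 stayed within the 95% interval of the main one, or for the number of copies within 1.5 times it, and 21 moved. With copies of at least 300 bases they were 94.0% on another scaffold, 54.7% divisible by 3, 67.9% coverage and 39.7% score. With 1 copy per symbol the score was 34.4%. With parents of 5 or more coding parts coverage was 46.2% and score 27.5%. On large scaffolds alone the values were 87.5, 61.6, 61.7 and 35.0%, with 10.9% inside another gene. With no family left out (1212 copies) coverage was 67.6% and score 38.0%, and with the model of most coding parts as parent (1156 copies) the score was 40.2%. Among copies crossing 2 or more junctions, an alternative chosen after seeing the data, 344 copies had 96.2, 53.2, 76.7, 57.1 and 12.5%. A junction margin of 0 or 30 bases, also chosen afterwards, gave 358 or 332 crossing copies. Exonerate models alone, joined coding parts, low-confidence names left out and, added afterwards, pieces counted once, XYLB and QSER1 left out and repeated IDs left out moved none of the 6 results. No paired analysis was possible because no value belongs to a library. The cause of the moves was not tested.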

Other observations

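Scaffolds were assigned to the X chromosome where most of at least 10 genes matched to mouse by name lie on the mouse X. This held for scaffolds 24, 30, 32, 42, 43, 45 and 50, of which scaffold 30 was mixed, with 64 such genes and 51 others. On scaffolds with enough matched genes, 74 of 699 single-exon copies (10.6%, exact binomial 95% interval 8.4 to 13.1) lay on these scaffolds. They make up 5.23% of the annotated length, and hold 4.85% of all gene models and 5.95% of the multi-exon copies. Parents of 28 of the 699 copies (4.01%, 2.68 to 5.74) lay there, beside 3.54% of all symbols with 3 or more coding parts. Of copies crossing 2 or more junctions, 34 of 313 (10.9%, 7.64 to 14.8) lay there. Without scaffold 30, 69 of 689 copies lay there (interval 7.88 to 12.5%), beside 4.14% of the length and 3.85% of all models. By symbol, SUPT20H had 3 such copies, CAP1, DECR1, FAM91A1 and SET 2 each, and the others 1. DECR1 and FAM91A1 include pieces that were joined into 1 locus each. The CAP1 copies lay close together on scaffold 43 (5506470 to 5506769 and 5507319 to 5507561, minus strand) but were not joined. The cause of the higher share was not tested.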
